A study of Mus musculus with 4 samples.

Results

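The nuclear genes of oxidative phosphorylation were followed across 4 single-cell RNA libraries of mouse pluripotent and caudal cell states made in culture. Members were taken by symbol: every gene beginning with Nduf, Sdha to Sdhd, Uqcr, Cox4i to Cox8 or Atp5 with at least 50 unique molecular identifiers (UMIs, the count of distinct tagged RNA molecules) over all cells. Of 96 matching symbols 94 passed, out of 27998 genes in the table and 14336 that reached the same minimum. Cox8b, with 0 UMIs, and Cox8c, with 8, did not pass. The 94 comprised 74 structural subunits of the 5 complexes, 7 complex I and 4 complex II assembly factors, 6 tissue-restricted isoforms of complex IV subunits, and 3 genes that share a prefix without being core parts of an enzyme (Cox7a2l, Atp5s and Atp5sl). Ndufa4, named for complex I but found in complex IV, was counted with complex IV.

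The libraries came from E14Tg2a mouse cells differentiated toward neuromesodermal progenitors (NMPs), the caudal cells that give rise to spinal cord and trunk mesoderm, and each was loaded with 8700 cells. Epi-NMP cells were Epi-CE cells replated for 2 days in 20 ng/ml FGF2 with 3 µM CHIR99021, an activator of Wnt signalling. Epi-CE-T cells were differentiated like Epi-CE cells but from a reporter line carrying GFP at Brachyury (Bra:GFP), and only GFP-positive cells sorted after 72 hours were used. Epi-CE cells started as epiblast stem cells, kept for several passages in 12 ng/ml FGF2 and 25 ng/ml activin A, and received 20 ng/ml FGF2 without activin, with 3 µM CHIR99021 added on the last day. ES-NMP cells were embryonic stem cells held in N2B27 medium, given 3 µM CHIR99021 on the last day of 72 hours in total. All 4 libraries had therefore been exposed to CHIR99021, and Epi-CE-T differed from Epi-CE in cell line as well as in the sort.

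Oxidative phosphorylation makes ATP in the inner mitochondrial membrane: complexes I and II pass electrons through complex III to complex IV, complexes I, III and IV pump protons, and complex V uses the proton gradient to form ATP. Complexes I, III, IV and V are assembled from nuclear-encoded subunits and from subunits encoded by mitochondrial DNA, whereas complex II is nuclear-encoded throughout. Naive embryonic stem cells are known to respire and to use glycolysis, and epiblast stem cells are known as strongly glycolytic.

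The authors marked 8722 of 10579 barcodes for use, giving 1111 Epi-NMP, 2109 Epi-CE-T, 2386 Epi-CE and 3116 ES-NMP cells with medians of 19189 to 22614 UMIs. Summed UMIs per library lay between 22261452 and 71563029, and levels are given as UMIs per 1000000 UMIs of the library (CPM). Each state was 1 library, so no difference below has a replicate check, and a difference between states cannot be told apart from one between libraries. All intervals are 95% and cover counting error only: exact Poisson for levels, exact conditional binomial for ratios and Clopper-Pearson for shares. Because UMIs tag only the 3′ end, levels are compared between libraries for each gene and not between genes. Of the label checks, Brachyury (T) had 240.6, 382.1, 430.5 and 102.3 CPM in Epi-NMP, Epi-CE-T, Epi-CE and ES-NMP cells, Cdx2 336.0, 4.67, 122.0 and 244.6 CPM, and Sox2 99.99, 49.0, 31.4 and 71.7 CPM. The sorted Epi-CE-T library was thus below Epi-CE in Brachyury itself and nearly devoid of Cdx2. Of the marked barcodes 84 had the same sequence as one in another library, between 0.720% and 1.34% of a library.

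The nuclear module as a whole varied little between the libraries. Its share of all UMIs was 3.12% (3.11 to 3.12) in Epi-NMP, 3.22% (3.22 to 3.23) in Epi-CE-T, 3.23% (3.22 to 3.23) in Epi-CE and 3.24% (3.23 to 3.24) in ES-NMP. The ratio between a gene's highest and lowest library was under 1.5 for 72 of the 94 members (76.6%), against 26.0% of all 14336 genes that reached the same minimum. The median of that ratio was 1.27 for members and 1.96 for all genes. Members are abundant genes, and among the 4736 genes with at least 5000 UMIs the share under 1.5 was 43.5%. Among the structural subunits 65 of 74 stayed under 1.5. The lowest library was most often Epi-NMP, for 36 members, and the highest most often Epi-CE-T, for 34. Epi-CE-T was also the lowest for 23 members and Epi-NMP the highest for 18. No share over all genes stands beside these counts, so they give no direction particular to the module.

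Epi-CE stood against ES-NMP as the caudal state reached by way of epiblast stem cells against the one reached directly. Of 94 members 6 were at least 1.5-fold higher and 5 at least 1.5-fold lower in Epi-CE, where 21.1% of all genes tested were higher and 16.2% lower by that fold. The members' median log2 ratio was 0.05 and that of all genes 0.03. The higher members were Cox6a2, Cox6b2, Cox7a1, Ndufa4l2, Ndufaf6 and Ndufv3, and the lower ones Atp5g1, Cox4i2, Cox7b2, Ndufaf2 and Uqcrq. Between Epi-NMP and ES-NMP, the NMP-stage cells of each route, 1 of 93 measured members was higher and 5 lower in Epi-NMP, beside 16.0% and 18.4% of all genes, with medians of -0.05 for members and 0.02 for all genes. The 5 lower members were Ndufaf7 and 4 scarce isoforms, and the higher one was Ndufaf4, so every structural subunit stayed inside 1.5-fold between these libraries.

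In Epi-NMP against Epi-CE, the replated cells against the stage before replating, 2 of 92 members were higher and 10 lower, beside 14.9% and 22.7% of all genes, with medians of -0.07 and -0.01. The 2 higher were Ndufaf2 and Atp5g1. In Epi-CE-T against Epi-CE 1 of 93 was higher and 3 were lower, beside 18.1% and 13.1%, with medians of 0.02 and 0.04 (the members' median was -0.05 with TMM and -0.04 with DESeq2 scaling). The higher member was Cox4i2, whose 68 UMIs over both libraries gave a ratio of 1.56 (0.940 to 2.59), and the lower ones were Ndufa4l2, Ndufaf4 and Ndufaf6. Comparisons that share a library (Epi-CE, ES-NMP or Epi-NMP) are not independent of each other. The exceptions were concentrated in complex I assembly factors, isoforms and a few accessory subunits, which are taken up by complex below.

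**Figure D1:**
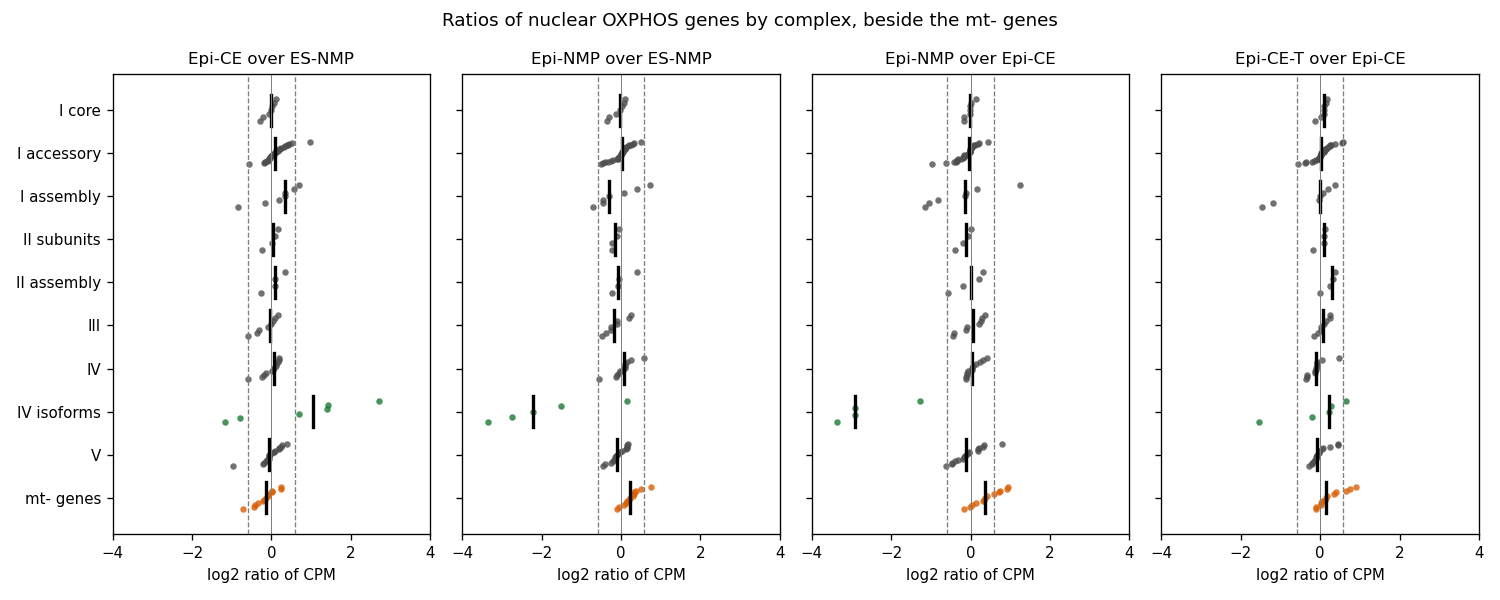
Log2 ratio of every nuclear member and every mitochondrially encoded gene, grouped by complex and role, in 4 comparisons (1 library each side); points are genes, bars medians of the group and dashed lines 1.5-fold; Cox7a2l, Atp5s and Atp5sl are drawn with their complexes. The structural subunits of complexes I to V and the complex II assembly factors sit mostly between the dashed lines. Complex I assembly factors and tissue-restricted isoforms spread past them.

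Promoter sequences of members were set beside those of all annotated genes for a few short motifs. The 300 bases around the annotated start (250 before it and 50 after) were found for 79 members in RefSeq's GRCm38.p6 annotation and searched on both strands. The palindromic core recognised by the respiratory regulator NRF1, 10 letters given in capitals in the lines below, was present in 7 of 79 member promoters (8.86%) and in 290 of 27025 gene promoters (1.07%). The letters AAGATGGC, the core recognised by YY1, were present in 11 of 79 (13.9%) and in 3.19% of all promoters. The ETS core CCGGAAGT, of the kind bound by GABPA, was found in 5 (6.33%) against 4.31%, TATAAA in 7 (8.86%) against 15.7%, and CCAAT in 35 (44.3%) against 41.1%. These counts describe letters in a window, not bound sites. Members had to reach a minimum of UMIs, whereas the 27025 genes were not limited to those expressed here. A trait of members can therefore not be told apart from one of expressed genes. The 7 NRF1-type matches are shown with 10 bases on each side, 5′ to 3′ on the gene's strand, with the matched letters in capitals, because they span an accessory subunit, common subunits of complexes III, IV and V and assembly factors:
Ndufa11 (chr17:56717692-56717721, plus strand): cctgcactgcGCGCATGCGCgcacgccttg
Ndufaf4 (chr4:24897960-24897989, plus strand): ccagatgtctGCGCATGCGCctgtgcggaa
Ndufaf5 (chr2:140170652-140170681, plus strand): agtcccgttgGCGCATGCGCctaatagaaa
Uqcrc1 (chr9:108936668-108936697, plus strand): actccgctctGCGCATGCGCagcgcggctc
Cox6a1 (chr5:115349101-115349130, minus strand): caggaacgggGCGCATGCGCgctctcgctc
Atp5g2 (chr15:102671070-102671099, minus strand): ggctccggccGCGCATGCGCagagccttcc
Atp5k (chr5:108434430-108434459, minus strand): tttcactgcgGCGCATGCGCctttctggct

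Of the 11 YY1-type matches 7 lay in complex I genes, and 9 of the 11 began within the first 40 bases of the annotated transcript. Complex I also supplied more of the searched promoters than any other complex. The 4 shown, with the matched letters in capitals, include Ndufs4, which differed most among these 11 genes between Epi-NMP and Epi-CE:
Ndufs4 (chr13:114388045-114388069, minus strand): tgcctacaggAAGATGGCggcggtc
Ndufs7 (chr10:80249463-80249490, plus strand): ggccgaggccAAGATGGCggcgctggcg
Ndufc1 (chr3:51408916-51408943, minus strand): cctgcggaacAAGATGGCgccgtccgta
Atp5j2 (chr5:145191501-145191528, minus strand): ccaggacttcAAGATGGCgtcactcggt
Of the 7 genes with the NRF1-type letters Ndufaf4 had a highest-to-lowest ratio of 3.07 between libraries, and the other 6 had ratios between 1.11 (Cox6a1) and 1.38 (Uqcrc1).

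Complex I, the NADH dehydrogenase, had a flat catalytic core. Its 7 nuclear core subunits, which carry the flavin and the iron-sulfur clusters, had highest-to-lowest ratios of 1.07 to 1.28. Ndufs7, which holds the last cluster before ubiquinone, had 223.3 CPM in Epi-NMP, 238.7 in Epi-CE-T, 223.1 in Epi-CE and 225.6 in ES-NMP cells. Ndufs1, the large iron-sulfur subunit and the least even of the 7, had 57.0, 64.7, 63.7 and 73.2 CPM in that order.

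The 29 accessory subunits had a median highest-to-lowest ratio of 1.22 and a range of 1.03 to 2.88. That ratio passed 1.5 for 6 of them: Ndufv3 (2.88), Ndufs4 (1.95), Ndufa13 (1.64), Ndufa3 (1.59), Ndufa6 (1.56) and Ndufa9 (1.51). Ndufv3, a small subunit of the NADH-binding module known for alternative splice forms, had 217.7 CPM in Epi-NMP, 498.6 in Epi-CE-T, 337.3 in Epi-CE and 173.1 in ES-NMP cells. It was 1.95-fold higher (1.91 to 1.99) in Epi-CE than in ES-NMP, 1.48-fold higher (1.45 to 1.51) in Epi-CE-T than in Epi-CE, and 1.55-fold lower (1.501 to 1.599) in Epi-NMP than in Epi-CE. Both epiblast-derived caudal libraries were thus above both NMP-stage libraries. The files give 1 value per gene, so splice forms of Ndufv3 were not separated.

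Ndufs4, an accessory subunit at the tip of the peripheral arm whose loss in mice is used to model Leigh syndrome, had 148.8 CPM in Epi-NMP, 222.5 in Epi-CE-T, 289.9 in Epi-CE and 203.3 in ES-NMP cells. It was 1.95-fold lower (1.88 to 2.02) in Epi-NMP than in Epi-CE and 1.43-fold higher (1.39 to 1.46) in Epi-CE than in ES-NMP. Ndufb7 and Ndufa13, of which Ndufa13 is also known as GRIM-19, had their own pattern: Ndufb7 had 276.8, 392.8, 267.0 and 395.3 CPM and Ndufa13 375.5, 617.6, 479.8 and 499.4 CPM in Epi-NMP, Epi-CE-T, Epi-CE and ES-NMP cells. Epi-CE-T and ES-NMP were above Epi-NMP in both genes, while Epi-CE was near Epi-NMP in Ndufb7 and near ES-NMP in Ndufa13. Both lie on chromosome 8, which is taken up below.

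The complex I assembly factors, chaperones that build the enzyme and are absent from the finished complex, were the least even group of that complex. Of the 7, 5 were past a highest-to-lowest ratio of 1.5, with a median of 2.29, and they did not go one way. Among all 14336 genes only 26.0% stayed under 1.5, with a median of 1.96. The count of factors past 1.5 was thus near the share of all genes. Ndufaf2, which binds a late intermediate of the peripheral arm, had 85.6 CPM in Epi-NMP, 35.8 in Epi-CE-T, 36.2 in Epi-CE and 65.1 in ES-NMP cells. It was 2.36-fold higher (2.22 to 2.52) in Epi-NMP than in Epi-CE and 1.80-fold lower (1.71 to 1.89) in Epi-CE than in ES-NMP, so both NMP-stage libraries were above both epiblast-derived caudal ones. Ndufaf6 went the other way between the same stages, at 35.4, 34.0, 78.1 and 48.6 CPM, and was highest in Epi-CE. It was 2.21-fold lower (2.04 to 2.38) in Epi-NMP than in Epi-CE, 2.29-fold lower (2.16 to 2.43) in Epi-CE-T than in Epi-CE and 1.61-fold higher (1.54 to 1.68) in Epi-CE than in ES-NMP.

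Ndufaf4, an early assembly factor, was set apart by the sorted library. It had 184.8 CPM in Epi-NMP, 60.1 in Epi-CE-T, 166.2 in Epi-CE and 111.3 in ES-NMP cells, and was 2.76-fold lower (2.65 to 2.89) in Epi-CE-T than in Epi-CE and 1.66-fold higher (1.599 to 1.73) in Epi-NMP than in ES-NMP. Its partner in the early membrane-arm intermediate, Ndufaf3, had 27.0, 61.2, 47.4 and 37.1 CPM in the same order, a different pattern. Ndufaf7, a methyltransferase, had 18.0, 42.9, 37.3 and 29.6 CPM. Both were lowest in Epi-NMP: Ndufaf3 was 1.76-fold (1.61 to 1.92) and Ndufaf7 2.07-fold (1.86 to 2.31) lower there than in Epi-CE. Ndufaf1 and Ndufaf5 stayed between 27.2 and 32.6 CPM and between 13.7 and 16.7 CPM.

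**Figure D2:**
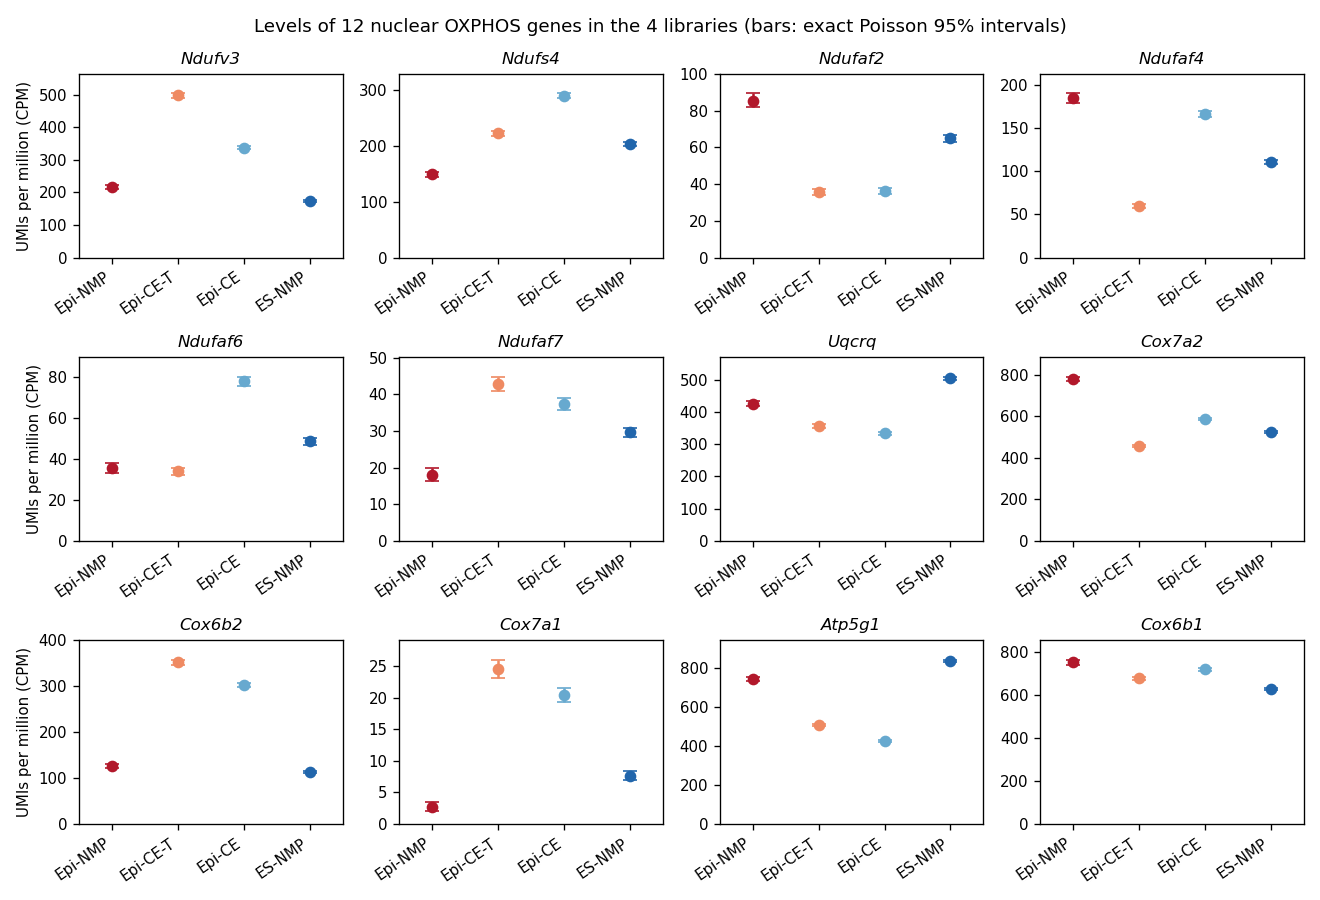
Level in CPM (vertical axes from 0) of 12 nuclear members in the Epi-NMP, Epi-CE-T, Epi-CE and ES-NMP libraries, 1 library each; points are levels and bars exact Poisson 95% intervals, which cover counting error only. Ndufv3 and Cox6b2 are higher in Epi-CE-T and Epi-CE, Atp5g1 and Ndufaf2 are higher in Epi-NMP and ES-NMP, and Cox6b1 is nearly level.

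Complex II, succinate dehydrogenase, which also serves the citric acid cycle, was level in its subunits. Its 4 subunits had highest-to-lowest ratios of 1.11 to 1.31. Sdha, the flavoprotein, had 171.1 CPM in Epi-NMP, 196.4 in Epi-CE-T, 223.4 in Epi-CE and 200.5 in ES-NMP cells, and Sdhb, the iron-sulfur subunit, 222.8, 234.4, 219.9 and 258.5 CPM. Of its assembly factors Sdhaf4, which binds flavinated Sdha, varied most: 40.4, 70.7, 60.1 and 47.1 CPM, a level 1.49-fold lower (1.38 to 1.602) in Epi-NMP than in Epi-CE. No member of complex II passed 1.5-fold in any of the 4 comparisons.

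Complex III, the cytochrome bc1 complex, had the highest median highest-to-lowest ratio of the 5 complexes' structural subunits, 1.32 over 8 subunits, with a range of 1.11 to 1.51. Uqcrq, a subunit of the ubiquinone-binding region and the 1 past a ratio of 1.5, had 425.8 CPM in Epi-NMP, 355.5 in Epi-CE-T, 333.8 in Epi-CE and 504.7 in ES-NMP cells and was 1.51-fold lower (1.49 to 1.54) in Epi-CE than in ES-NMP. It lies on chromosome 11, and with that chromosome's median taken off the log2 ratio was -0.47 in place of -0.60, inside 1.5-fold. The core protein Uqcrc2 spanned nearly as wide a ratio, 1.48, with 216.0 CPM in Epi-NMP, 318.9 in Epi-CE-T, 289.5 in Epi-CE and 258.8 in ES-NMP cells. The core protein Uqcrc1 and the small subunit Uqcrb reached 1.38 and 1.37, and the Rieske iron-sulfur protein Uqcrfs1 was level at 310.1 to 345.3 CPM.

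Complex IV, cytochrome c oxidase, kept most of its common subunits level and varied in isoforms. Its 11 common subunits had highest-to-lowest ratios of 1.09 to 1.71. Cox4i1, the regulatory subunit that binds ATP, had 1254 CPM in Epi-NMP, 1704 in Epi-CE-T, 1233 in Epi-CE and 1844 in ES-NMP cells and was 1.49-fold lower (1.48 to 1.51) in Epi-CE than in ES-NMP. It too lies on chromosome 8, and it overlaps Emc8 on the opposite strand. Cox5b and Cox8a stayed within 1.09-fold across the libraries.

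Cox7a2, the common form of subunit VIIa, was the common subunit that varied most. It had 778.8 CPM in Epi-NMP, 455.9 in Epi-CE-T, 586.0 in Epi-CE and 525.1 in ES-NMP cells, and was 1.48-fold higher (1.46 to 1.51) in Epi-NMP than in ES-NMP. Its related gene Cox7a2l, which joins complexes III and IV into a supercomplex, was level at 501.3 to 533.4 CPM. Cox7a2 was accordingly 60.6% (60.1 to 61.2) of the family's UMIs in Epi-NMP, against 46.4% (46.0 to 46.9) in Epi-CE-T, 51.4% (51.0 to 51.8) in Epi-CE and 50.1% (49.8 to 50.5) in ES-NMP cells. Shares of this kind are set across libraries only, since the genes of a family may be tagged with unequal efficiency.

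The widest isoform difference of an abundant gene was in subunit VIb. Cox6b2, known as the testis form, had 125.5 CPM (120.9 to 130.2) in Epi-NMP, 352.3 (346.8 to 357.8) in Epi-CE-T, 303.5 (299.1 to 308.0) in Epi-CE and 112.6 (110.2 to 115.1) in ES-NMP cells. The common form Cox6b1 had 751.5, 675.8, 719.5 and 627.9 CPM in the same order. Cox6b2 was 2.69-fold higher (2.62 to 2.77) in Epi-CE than in ES-NMP and 2.42-fold lower (2.32 to 2.52) in Epi-NMP than in Epi-CE, whereas Cox6b1 stayed within 1.20-fold over all 4 libraries. Cox6b2 made up 14.3% (13.8 to 14.8) of the pair's UMIs in Epi-NMP, 34.3% (33.8 to 34.7) in Epi-CE-T, 29.7% (29.3 to 30.0) in Epi-CE and 15.2% (14.9 to 15.5) in ES-NMP cells.

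Both genes lie on chromosome 7. The 250 bases before their annotated starts in GRCm38.p6 are shown because the pair differs so clearly in level between the libraries; capitals mark CCAAT or its reverse complement ATTGG, and each promoter held 2 such matches:
Cox6b2 (chr7:4753095-4753344, minus strand): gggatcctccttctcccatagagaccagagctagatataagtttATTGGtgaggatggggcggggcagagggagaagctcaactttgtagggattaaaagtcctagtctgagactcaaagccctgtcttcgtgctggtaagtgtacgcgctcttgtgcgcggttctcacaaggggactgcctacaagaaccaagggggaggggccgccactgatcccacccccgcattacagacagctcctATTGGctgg
Cox6b1 (chr7:30626115-30626364, minus strand): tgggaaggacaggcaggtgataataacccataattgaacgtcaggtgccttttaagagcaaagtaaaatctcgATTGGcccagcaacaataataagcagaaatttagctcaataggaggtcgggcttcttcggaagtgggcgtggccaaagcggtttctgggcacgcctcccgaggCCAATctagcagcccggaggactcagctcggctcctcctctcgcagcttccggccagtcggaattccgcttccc
The Cox6b2 stretch was 54.8% G and C with 8 CpG dinucleotides and the Cox6b1 stretch 54.0% with 14. The first Cox6b2 match began 206 bases and the other 9 bases before the start, and those of Cox6b1 began 177 and 74 bases before it.

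The remaining tissue-restricted isoforms of complex IV were scarce. Cox7a1, the heart and muscle form of subunit VIIa, had 2.70 CPM in Epi-NMP, 24.5 in Epi-CE-T, 20.4 in Epi-CE and 7.66 in ES-NMP cells, the same ranking of the epiblast-derived caudal libraries above the other libraries as Cox6b2. It was 7.57-fold lower (5.84 to 9.98) in Epi-NMP than in Epi-CE, 2.84-fold lower (2.17 to 3.77) in Epi-NMP than in ES-NMP and 2.66-fold higher (2.41 to 2.95) in Epi-CE than in ES-NMP. It nevertheless made up 0.210% of its family in Epi-NMP and 2.50%, 1.79% and 0.731% in Epi-CE-T, Epi-CE and ES-NMP cells. Ndufa4l2, a paralogue of Ndufa4 known to be induced by hypoxia, had 0.539, 1.38, 4.04 and 2.50 CPM in that order and was 7.49-fold lower (4.21 to 14.7) in Epi-NMP than in Epi-CE and 2.93-fold lower (2.21 to 3.94) in Epi-CE-T than in Epi-CE. Ndufa4 itself had 728.4, 562.9, 713.5 and 655.2 CPM.

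The 3 rarest members could be described by their counts alone. Cox6a2, the muscle form of subunit VIa, had 3 UMIs in Epi-NMP, 54 in Epi-CE-T, 81 in Epi-CE and 15 in ES-NMP cells, and by CPM it was 6.59-fold higher (3.77 to 12.3) in Epi-CE than in ES-NMP. Cox4i2, the lung form of subunit IV, had 3, 37, 31 and 65 UMIs and Cox7b2, a testis form of subunit VIIb, 2, 9, 24 and 66 UMIs. Those last genes were highest by CPM in ES-NMP. Summed levels of 7 contractile muscle markers were 21.0 CPM in Epi-NMP, 15.3 in Epi-CE-T, 54.8 in Epi-CE and 228.0 in ES-NMP cells. The muscle isoform Cox7a1 was highest by CPM in Epi-CE-T and Cox6a2 in Epi-CE. Whether muscle-like cells were a source of either isoform was not tested.

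Complex V, the ATP synthase, was level in its catalytic head and varied in 1 of the 3 genes for the membrane ring. Atp5a1, the alpha subunit, had 655.5 CPM in Epi-NMP, 681.3 in Epi-CE-T, 751.8 in Epi-CE and 783.4 in ES-NMP cells, and the catalytic beta subunit Atp5b 1522, 1758, 2125 and 2002 CPM. In Epi-NMP over Epi-CE Atp5b had the lowest log2 ratio of the 15 subunits, -0.48. The 15 subunits had a median highest-to-lowest ratio of 1.249. Subunit c, which forms the rotating ring, is made from Atp5g1, Atp5g2 or Atp5g3, whose mature proteins are known to be identical and which differ in the import sequence.

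Atp5g1 had 740.6 CPM in Epi-NMP, 506.9 in Epi-CE-T, 425.4 in Epi-CE and 833.5 in ES-NMP cells. It was 1.96-fold lower (1.93 to 1.99) in Epi-CE than in ES-NMP and 1.74-fold higher (1.71 to 1.78) in Epi-NMP than in Epi-CE. Atp5g2 had 699.9, 857.2, 874.1 and 766.4 CPM and Atp5g3 290.7, 242.9, 230.8 and 262.2 CPM, each inside 1.5-fold in all 4 comparisons. Atp5g1 thus gave 42.8% (42.3 to 43.3) of c-subunit UMIs in Epi-NMP, 31.5% (31.2 to 31.9) in Epi-CE-T, 27.8% (27.5 to 28.1) in Epi-CE and 44.8% (44.5 to 45.0) in ES-NMP cells. The summed level of the 3 genes was 1731, 1607, 1530.4 and 1862 CPM, a narrower span than that of Atp5g1 alone. Both NMP-stage libraries had the larger Atp5g1 share, the reverse of the Cox6b2 pattern.

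The 250 bases before the starts of Atp5g1 and of the steadier Atp5g3 are shown for comparison, again with CCAAT or ATTGG in capitals; Atp5g1 held 5 matches, a pair of them overlapping, and Atp5g3 1:
Atp5g1 (chr11:96075632-96075881, minus strand): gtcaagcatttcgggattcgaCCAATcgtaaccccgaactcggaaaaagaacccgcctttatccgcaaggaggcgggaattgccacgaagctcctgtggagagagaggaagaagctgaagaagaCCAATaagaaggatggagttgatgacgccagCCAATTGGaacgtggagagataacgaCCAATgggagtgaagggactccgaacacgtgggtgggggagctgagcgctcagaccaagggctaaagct
Atp5g3 (chr2:73911327-73911576, minus strand): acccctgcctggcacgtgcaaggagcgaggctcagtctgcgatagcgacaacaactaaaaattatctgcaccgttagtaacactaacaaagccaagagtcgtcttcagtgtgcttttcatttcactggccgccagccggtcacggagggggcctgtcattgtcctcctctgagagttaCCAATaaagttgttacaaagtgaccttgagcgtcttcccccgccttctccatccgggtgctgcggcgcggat
Atp5g2 carried the NRF1-type letters printed above and did not pass 1.5-fold in any comparison. Atp5s, a coupling factor related protein, had 7.37 CPM in Epi-NMP, 15.2 in Epi-CE-T, 11.2 in Epi-CE and 8.54 in ES-NMP cells and was 1.52-fold lower (1.28 to 1.82) in Epi-NMP than in Epi-CE.

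**Figure D3:**
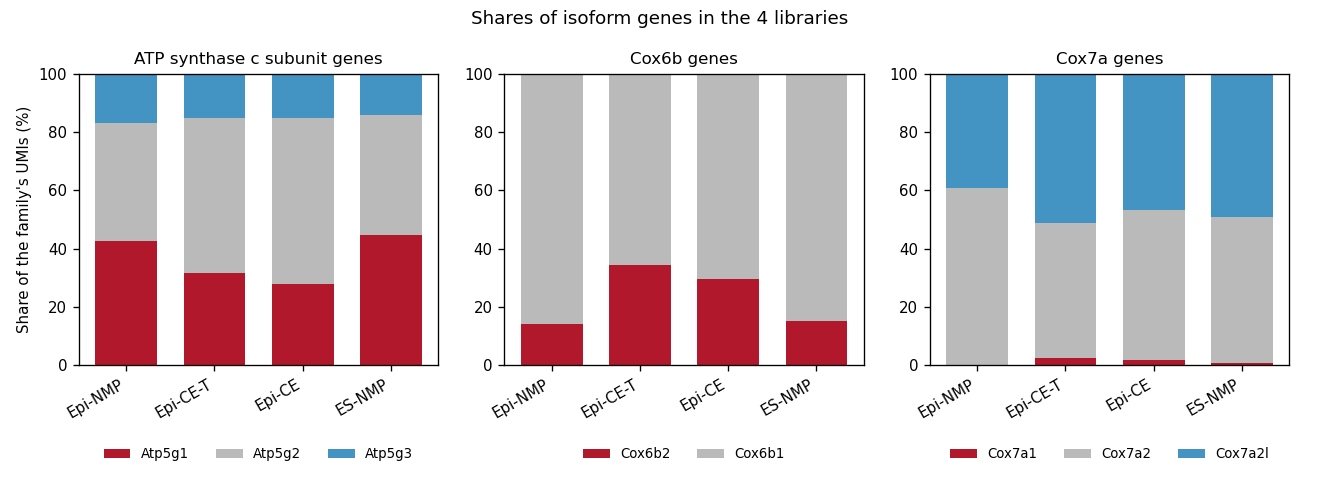
Share of family UMIs in percent (vertical axis, 0 to 100) given by each gene of the c-subunit, Cox6b and Cox7a families in the Epi-NMP, Epi-CE-T, Epi-CE and ES-NMP libraries, 1 stacked bar per library. Atp5g1 gives 42.8% and 44.8% in Epi-NMP and ES-NMP, against 31.5% and 27.8% in Epi-CE-T and Epi-CE, while Cox6b2 is larger in Epi-CE-T (34.3%) and Epi-CE (29.7%).

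The 13 protein-coding genes of mitochondrial DNA varied more than their nuclear partners. Their share of all UMIs was 2.61% (2.61 to 2.62) in Epi-NMP, 2.67% (2.66 to 2.67) in Epi-CE-T, 2.26% (2.25 to 2.26) in Epi-CE and 2.28% (2.28 to 2.28) in ES-NMP cells. Their median log2 ratio was -0.13 in Epi-CE against ES-NMP, 0.24 in Epi-NMP against ES-NMP, 0.35 in Epi-NMP against Epi-CE and 0.15 in Epi-CE-T against Epi-CE. In Epi-NMP against Epi-CE 5 of the 13 were at least 1.5-fold higher and none of the 13 was lower by that fold, beside 14.9% and 22.7% of all genes tested, while the nuclear members' median was -0.07. One of those 5, mt-Cytb, was inside 1.5-fold with TMM scaling (log2 ratio 0.57) and in cells with 15000 to 25000 UMIs (0.50).

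The genes of the mitochondrial genome are transcribed as long precursors, yet they did not share one profile here. mt-Nd1, a membrane core subunit of complex I, had 2954 CPM in Epi-NMP, 1611 in Epi-CE-T, 1569 in Epi-CE and 2574 in ES-NMP cells. mt-Cytb, the cytochrome b of complex III, had 3997, 2443, 2653 and 2811 CPM. Both were highest in Epi-NMP. mt-Co1, the catalytic subunit of complex IV, was instead highest in the sorted library, with 2752, 5169, 3065 and 2599 CPM.

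By ratio, mt-Nd1 was 1.88-fold higher (1.86 to 1.90) in Epi-NMP than in Epi-CE and 1.64-fold lower (1.63 to 1.65) in Epi-CE than in ES-NMP. mt-Co1 was 1.69-fold higher (1.68 to 1.70) in Epi-CE-T than in Epi-CE. mt-Co2, with 2239, 2223, 2194 and 2398 CPM, and mt-Atp6, with 6873, 6994, 6238 and 6223 CPM, were nearly level in the same libraries. mt-Nd6, the 1 gene of the 13 on the other strand, had 7.64, 7.53, 4.01 and 4.54 CPM, and whether its UMIs can be told from antisense RNA of mt-Nd5 is not given in the sources used here. mt-Atp8 and mt-Nd4l, whose reading frames overlap those of mt-Atp6 and mt-Nd4, had 21.7, 20.9, 13.3 and 16.7 CPM and 52.2, 31.9, 31.3 and 42.4 CPM, and their UMIs may be divided between the overlapping genes.

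**Figure D4:**
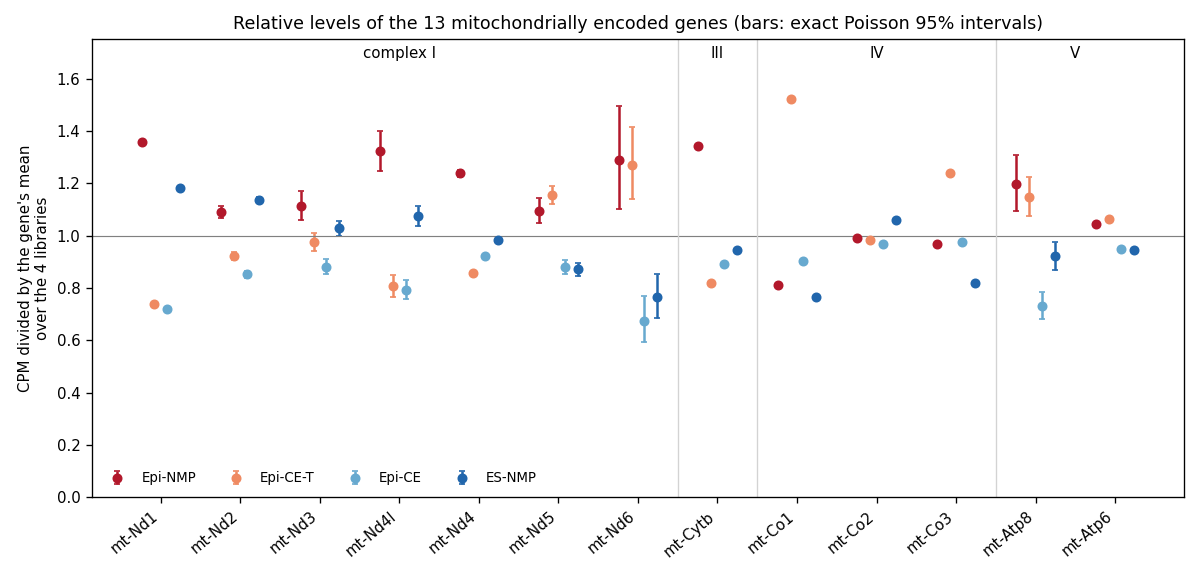
Level of each of the 13 mitochondrially encoded genes divided by that gene's mean over the 4 libraries (vertical axis, 1 is the mean), with 1 point per library and exact Poisson 95% intervals. mt-Nd1 is high in Epi-NMP and ES-NMP, mt-Co1 is high in Epi-CE-T, and mt-Co2 lies near 1 in every library.

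Set against each other within a complex, the nuclear and mitochondrial transcripts had proportions that varied between libraries, by an amount that depended on the complex. The summed nuclear level of complex I over the summed mitochondrial level was 1.74 in Epi-NMP, 3.13 in Epi-CE-T, 3.00 in Epi-CE and 2.06 in ES-NMP cells. For complex III, whose mitochondrial part is mt-Cytb alone, the ratio was 0.851, 1.432, 1.251 and 1.297 in that order. For complex IV it was 0.790, 0.536, 0.739 and 0.863, and for complex V 1.32, 1.31, 1.53 and 1.57, so that complex V had nearly the same ratio in Epi-NMP and Epi-CE-T. In complex I the nuclear sum ranged only between 8783 and 9876 CPM, and the mitochondrial sum between 3137 and 5040 CPM.

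Per cell the nuclear share was likewise the steadier. With every cell thinned to 8000 UMIs, the median share of nuclear members was 3.13% in Epi-NMP, 3.23% in Epi-CE-T, 3.24% in Epi-CE and 3.24% in ES-NMP cells (3.11%, 3.22%, 3.24% and 3.24% unthinned). The median mitochondrial share was 2.59%, 2.74%, 2.28% and 2.28% (2.59%, 2.72%, 2.26% and 2.26% unthinned). Within libraries the mitochondrial share was lower in deeper cells, with Spearman correlations with UMIs per cell of -0.52, -0.37, -0.40 and -0.32, whereas those of the nuclear share were -0.02, -0.03, -0.10 and 0.03. These are descriptions over 1111, 2109, 2386 and 3116 cells that share a library. Among cells with 15000 to 25000 UMIs the mitochondrial share was 2.58%, 2.77%, 2.37% and 2.34% in Epi-NMP, Epi-CE-T, Epi-CE and ES-NMP cells. Over all marked cells it was 2.61%, 2.67%, 2.26% and 2.28%, so Epi-NMP and Epi-CE lay closer together inside the depth window. The part of depth in these differences was not tested. The nuclear and mitochondrial shares of a cell were weakly related, with correlations of 0.04, 0.28, 0.08 and 0.16.

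Chromosomes 8 and 11 stood apart as a whole, which touches 7 members. In Epi-CE against ES-NMP the median log2 ratio of the other genes was -0.42 on chromosome 8 and -0.13 on chromosome 11, while the other 18 chromosomes lay between 0.03 and 0.15. In Epi-NMP against ES-NMP the values were -0.47 and -0.11, and in Epi-CE-T against Epi-CE 0.50 and 0.39. Between Epi-NMP and Epi-CE, cells of the same differentiation, they were -0.03 and 0.04. Of the 3 members on chromosome 8, 2 lay near its median: Cox4i1 had log2 ratios of -0.58 in Epi-CE against ES-NMP and 0.47 in Epi-CE-T against Epi-CE, and Ndufb7 -0.57 and 0.56. Ndufa13, the other one, had -0.06 in Epi-CE against ES-NMP, away from the chromosome's -0.42, and 0.36 in Epi-CE-T against Epi-CE. Of the 4 members on chromosome 11 Atp5g1 kept its difference with the chromosome's median taken off, at -0.84 in Epi-CE against ES-NMP and 0.76 in Epi-NMP against Epi-CE. DNA copy number was not measured, and its part in these values was not tested.

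**Figure D5:**
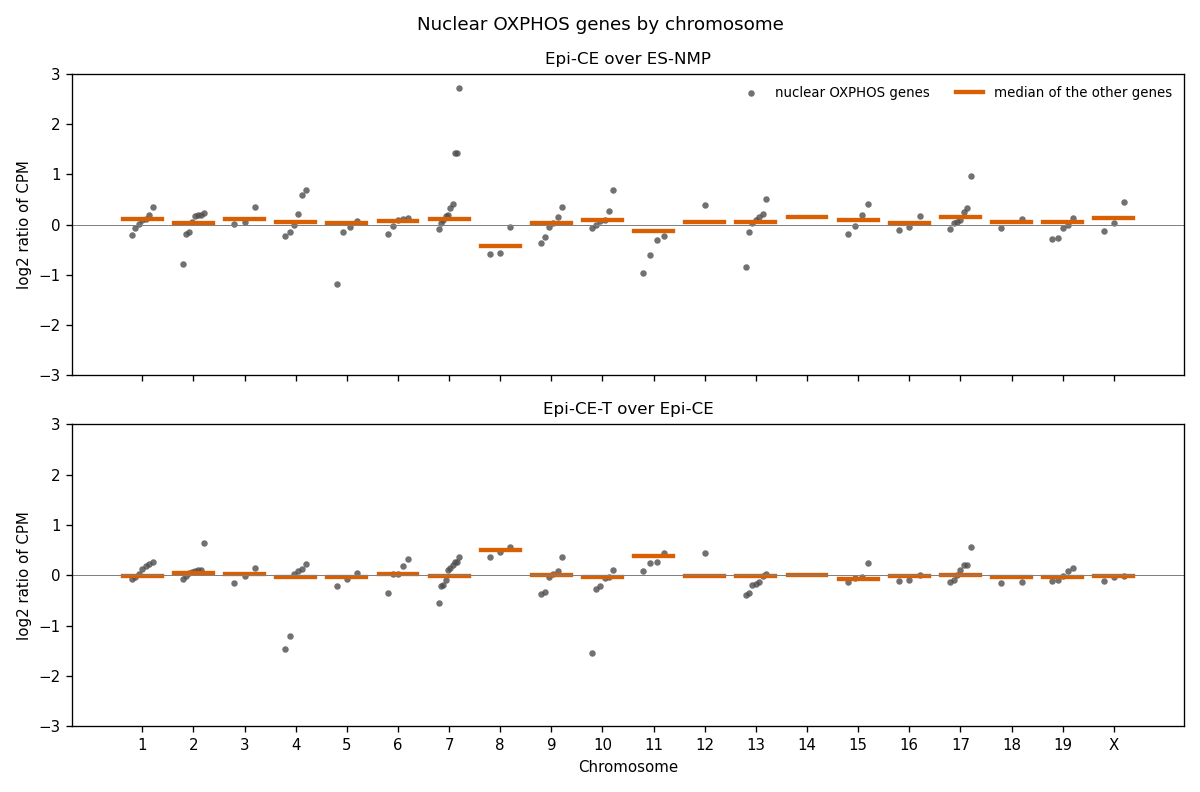
Log2 ratio of each nuclear member by chromosome (points) with the median of the other genes on that chromosome (horizontal bars), for Epi-CE over ES-NMP and for Epi-CE-T over Epi-CE, 1 library each side. The medians of chromosomes 8 and 11 lie below 0 in one comparison and above 0 in the other, and Cox4i1 and Ndufb7 lie beside that of chromosome 8.

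The libraries are mixtures of cells, so the members were also set between cells with and without markers of other states inside a library. These groups are ranges of a marker count, not cell types. In ES-NMP 943 of 3116 thinned cells had UMIs of at least 3 of 9 naive pluripotency markers, with 179 cells at exactly 3 and 437 at 2. The summed level of these markers was 31.0 CPM in Epi-NMP, 20.5 in Epi-CE-T, 63.0 in Epi-CE and 1758 in ES-NMP cells. In the cells with naive markers Cox7a1 had 12.9 CPM against 5.22 in the other ES-NMP cells, 2.47-fold higher (2.08 to 2.94), and Sdhaf1, a complex II assembly factor, 19.6 against 32.6, 1.66-fold lower (1.49 to 1.84). The members' median log2 ratio was -0.10, and their share of UMIs 3.18% against 3.27%. The whole Epi-CE library had 20.4 CPM of Cox7a1, and the part of cells with naive markers in its difference from ES-NMP was not tested.

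Node and notochord markers were high in the same libraries as Cox6b2: their summed level was 131.1 CPM in Epi-NMP, 515.5 in Epi-CE-T, 472.8 in Epi-CE and 127.5 in ES-NMP cells, with none of the 7 markers at 0. Inside Epi-NMP the 66 cells with at least 3 of them (53 at exactly 3 and 107 at 2) had 255.6 CPM of Cox6b2 against 119.2 in the other cells, 2.14-fold higher (1.88 to 2.44). In these cells Ndufaf4 was 1.67-fold higher (1.48 to 1.87), whereas inside Epi-CE-T and Epi-CE its ratio between cells at or above that marker count and the rest was 0.916 (0.844 to 0.993) and 1.11 (1.03 to 1.19). Also in these Epi-NMP cells Atp5g1 was 1.41-fold lower (1.298 to 1.54) and Uqcrq 1.53-fold lower (1.36 to 1.72). They had fewer UMIs (median 13799 against 19583) and a larger mitochondrial share (3.14% against 2.59%). Inside Epi-CE-T (831 cells, 539 of them at exactly 3 and 574 at 2) Cox6b2 was only 1.16-fold higher (1.13 to 1.20), at 388.2 against 333.6 CPM. Inside Epi-CE (220 cells, 161 at exactly 3 and 496 at 2) it was 1.14-fold higher (1.08 to 1.20), at 341.6 against 300.4 CPM. The Epi-CE cells at 300.4 CPM include those with fewer of these markers, and the whole ES-NMP library had 112.6 CPM. The part of cells with node markers in the difference between these libraries was not tested. Uqcrq was lower in the cells with these markers in Epi-CE-T and Epi-CE too, by 1.32-fold (1.27 to 1.36) and 1.29-fold (1.21 to 1.36).

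Markers of caudal epiblast and NMPs were counted in the same way. In Epi-NMP the 506 cells with at least 3 of 7 such markers (274 at exactly 3 and 280 at 2) had 919.3 CPM of Cox7a2 against 655.9 in the others, 1.40-fold higher (1.36 to 1.44). In ES-NMP the 1339 such cells (595 at exactly 3 and 679 at 2) had 5.51 CPM of Cox7a1 against 9.33, 1.69-fold lower (1.41 to 2.04), and a member median log2 ratio of 0.08.

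Glycolysis genes differed more often than the module in the comparisons of Epi-CE with ES-NMP and of Epi-NMP with Epi-CE. Of 16 glycolysis genes 15 were at least 1.5-fold higher in Epi-CE than in ES-NMP and none of the 16 lower, with a median log2 ratio of 1.23, and 12 of 16 were lower in Epi-NMP than in Epi-CE, with a median of -1.01; over all genes 21.1% were higher in the first comparison and 22.7% lower in the second. Pgk1, the phosphoglycerate kinase, had 187.0 CPM in Epi-CE and 53.5 in ES-NMP cells, a ratio of 3.495 (3.37 to 3.63), and Slc2a3, a glucose transporter, 154.9 in Epi-NMP and 509.6 in Epi-CE cells, a 3.29-fold lower level. In Epi-CE-T against Epi-CE 2 of 16 glycolysis genes were higher, beside 18.1% of all genes. In Epi-NMP against ES-NMP 2 of 16 were higher and 1 was lower, beside 16.0% and 18.4% of all genes. The nuclear OXPHOS medians beside these glycolysis medians were 0.05 and -0.07.

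Among 20 genes of the citric acid cycle and pyruvate dehydrogenase none passed 1.5-fold in Epi-CE against ES-NMP, where 37.3% of all genes did so in either direction. In Epi-NMP against Epi-CE 3 of 20 were lower, a smaller share than the 22.7% of all genes: the pyruvate dehydrogenase subunits Pdha1 (107.7 against 181.6 CPM) and Pdhb (55.6 against 100.7 CPM), and Idh3a (77.3 against 116.8 CPM), of NAD-dependent isocitrate dehydrogenase. Pdk1, the kinase that shuts pyruvate dehydrogenase down, was also lower there, at 32.2 against 78.1 CPM. Higd1a, a hypoxia-induced protein of complexes III and IV, had 516.9 CPM in Epi-CE and 241.1 in ES-NMP cells, and 189.6 in Epi-NMP cells. Ucp2, an uncoupling-family carrier, followed the same order with 95.8, 38.4 and 25.8 CPM in Epi-CE, ES-NMP and Epi-NMP cells.

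Lists of genes that build or regulate mitochondria differed from one another. Of 76 measured mitochondrial ribosomal proteins 1 was higher and 9 were lower in Epi-CE than in ES-NMP, beside 21.1% and 16.2% of all genes, with a median of -0.26. In Epi-NMP against Epi-CE 7 were higher and 2 lower, beside 14.9% and 22.7%, with a median of 0.18. Of 14 genes of mitochondrial transcription and replication 1 was higher and 3 were lower in Epi-CE than in ES-NMP (median -0.19), and 3 were higher and 3 lower in Epi-NMP than in Epi-CE (median -0.09). Mrpl12, a ribosomal protein that also binds the mitochondrial RNA polymerase, had 354.2 CPM in Epi-NMP, 203.2 in Epi-CE and 409.8 in ES-NMP cells. Of 10 measured nuclear regulators 4 were lower in Epi-CE than in ES-NMP and 4 (Myc, Pprc1, Mycn and Hif1a) higher in Epi-NMP than in Epi-CE, beside 16.2% and 14.9% of all genes. Myc, the growth regulator, had 19.1 CPM in Epi-NMP and 4.67 in Epi-CE cells, and Pprc1, a PGC-1-related coactivator, 21.7 and 12.7 CPM. Tfam, which packages mitochondrial DNA and starts its transcription, was 1.70-fold lower in Epi-CE-T than in Epi-CE, at 63.4 against 107.8 CPM, in the pair of libraries where the mitochondrial share was 2.67% against 2.26%. Slc25a4, the heart-type ADP/ATP carrier, was 1.81-fold higher there, at 1610 against 890.3 CPM. It lies on chromosome 8, and with that chromosome's median taken off the log2 ratio was 0.35 in place of 0.85, inside 1.5-fold.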

How the data were processed

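Droplet single-cell 3′ RNA libraries of 4 cell states (1 library each) were analysed from the UMI counts the authors deposited, a table of whole-number counts per gene and cell with no further normalization. Per the submitters' processing notes the counts came from Cell Ranger 1.3.1 on mm10, with Seurat 2.0 used downstream; the annotation, multimapping and strand settings are not given in the sources used here. Cells were those the authors marked TRUE for use, each with at least 8011 UMIs; the meaning of the mark is not given in the sources used here. Doublets were not called and all marked cells were kept.

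Counts were summed per library and divided by its total (CPM). Members, related lists, markers and tests were chosen with earlier results of these data known. A ratio needed 50 UMIs over both libraries and was counted past 1.5-fold. Named members were those past 1.5-fold or at the extreme of a complex with at least 200 UMIs, the isoform families and every mt- gene; related lists gave at most 3 genes each, though Ndufa3, Ndufa6, Ndufa9, Ndufa13, Ndufb7, Uqcrb, Uqcrc1, Uqcrc2, Cox6a2, Cox4i2, Cox7b2 and subunits that stayed level were named after their values were seen. With 1 library a group no test between conditions was run. Alternatives were all barcodes, TMM (edgeR 4.0.16) and DESeq2 1.42.0 factors in R 4.3.3, totals without ribosomal protein and mt- genes, other minima, per-cell means, depth limits and structural subunits only. Cells with 15000 to 25000 UMIs, subtraction of chromosome medians and the 5000-UMI background were chosen after seeing the data. Ratio counting was tested on simulated data. Python 3.11.15, NumPy 2.4.6, SciPy 1.17.1, pandas 2.3.3 and matplotlib 3.10.9 were used. Chromosomes, coordinates and exons came from the GENCODE annotation of mm10, where 26647 of 27998 symbols were matched, all members included. RefSeq gave synonyms of symbols and the GRCm38.p6 promoters. BLAST 2.17.0 compared members' 3′ ends with GENCODE transcripts, and 17 members had a near-identical copy elsewhere (at least 95% identity). In the same annotation 28 members overlapped exons of another coding gene, 4 of them on the same strand.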

Additional observations from a re-analysis of the deposited data

How the results depend on the processing

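No paired analysis was possible because each group was 1 library, and for the same reason no replicate could be left out. Of the counts and medians recomputed under the alternatives, 152 stayed and 24 did not stay within 1.5 times the reported count or inside the 95% interval of the reported median over genes. Of the other recomputed values, mostly single-gene log2 ratios and isoform shares, 811 stayed inside the reported value's own interval (counting error, or the quartiles over cells) and 294 did not. Of 35 named differences past 1.5-fold, 305 recomputed values kept the sign in all 305 and stayed past 1.5-fold in 296. The exceptions in log2 were, with all barcodes, Ndufa4l2 in Epi-CE over ES-NMP (0.53) and Ndufv3 (-0.58) and Atp5s (-0.53) in Epi-NMP over Epi-CE. With chromosome medians taken off they were Uqcrq in Epi-CE over ES-NMP (-0.47) and Ndufv3 (-0.52) and Atp5s (-0.55) in Epi-NMP over Epi-CE. The last were mt-Cytb in Epi-NMP over Epi-CE (0.57 with TMM, 0.50 in cells with 15000 to 25000 UMIs) and mt-Atp8 in Epi-CE-T over Epi-CE (0.58 with TMM).

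With structural subunits only, 1 member was higher and 2 lower in Epi-CE over ES-NMP, 0 and 0 in Epi-NMP over ES-NMP, 1 and 2 in Epi-NMP over Epi-CE, and 0 and 0 in Epi-CE-T over Epi-CE; fewer genes entered these counts by construction. For Epi-CE over ES-NMP 3 members were lower in cells with 15000 to 25000 UMIs and 3 under a minimum of 500 UMIs, and the members' median was -0.022 with chromosome medians taken off. For Epi-NMP over ES-NMP 2 members were higher with all barcodes, 2 with the shallowest and deepest 10% of cells left out, 2 in cells with 15000 to 25000 UMIs and 2 with per-cell means; 2 were lower with at least 500 UMIs, and the mt- median was 0.43 with all barcodes. For Epi-CE-T over Epi-CE the members' median was -0.049 with TMM and -0.036 with DESeq2; 0 members were higher with TMM, 0 with DESeq2 and 0 with at least 500 UMIs, and 2 were higher with those same 10% tails left out and 2 without the 5% of cells with the most UMIs. The cause of these shifts was not tested.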

Other observations

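The barcodes the authors did not mark for use carried both the module and the mitochondrial genes in a larger share than the marked cells of the same library. There were 1513 such barcodes in Epi-NMP, 92 in Epi-CE-T, 80 in Epi-CE and 172 in ES-NMP, with medians of 4720, 7543, 7806 and 6982 UMIs. Their mitochondrial share was 4.53% against 2.61% in the marked Epi-NMP cells, 3.90% against 2.67% in Epi-CE-T, 3.58% against 2.26% in Epi-CE and 4.02% against 2.28% in ES-NMP. The nuclear share was 3.32% against 3.12%, 3.63% against 3.22%, 3.77% against 3.23% and 3.45% against 3.24% in the same libraries. The median log2 ratio of unmarked over marked barcodes was 0.71, 0.54, 0.68 and 0.79 for the mt- genes and 0.08, 0.17, 0.20 and 0.11 for the nuclear members.

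Of 30 measured assembly factors outside the symbol rule 4 were at least 1.5-fold higher and 2 lower in Epi-CE over ES-NMP, beside 21.1% and 16.2% of all genes. In Epi-NMP over ES-NMP 1 was higher and 2 were lower (16.0% and 18.4% of all genes), in Epi-NMP over Epi-CE 1 and 5 (14.9% and 22.7%), and in Epi-CE-T over Epi-CE 4 and 1 (18.1% and 13.1%). Cox20, which assists maturation of the subunit encoded by mt-Co2, had 57.0 CPM in Epi-NMP and 27.9 in ES-NMP cells, and 47.9 in Epi-CE cells. Cox10, which makes heme O, had 27.6 CPM in Epi-CE and 51.1 in ES-NMP cells. Nubpl, an iron-sulfur carrier for complex I, had 24.8 CPM in Epi-NMP and 45.9 in Epi-CE cells. Pet100, a complex IV assembly factor, had 91.8 CPM in Epi-CE-T and 49.9 in Epi-CE cells; it lies on chromosome 8, and with that chromosome's median taken off the log2 ratio was 0.38 in place of 0.88. Over the 30 measured factors of this list the median log2 ratio was -0.06 in Epi-CE over ES-NMP, -0.05 in Epi-NMP over ES-NMP, -0.08 in Epi-NMP over Epi-CE and 0.14 in Epi-CE-T over Epi-CE.

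Cyct, the testis form of cytochrome c, was scarce, with 261 UMIs over Epi-CE and ES-NMP. It had 0.0449 CPM in Epi-NMP, 0.0682 in Epi-CE and 3.59 in ES-NMP cells. The Epi-NMP value lay below the level of 3 UMIs in that library, 0.135 CPM. The ratio of Epi-CE over ES-NMP was 0.0190 (0.00513 to 0.0492), a direction opposite to that of the testis form Cox6b2. Dhodh, which feeds electrons from pyrimidine synthesis into ubiquinone, had 32.6 CPM in Epi-NMP, 58.5 in Epi-CE-T, 33.9 in Epi-CE and 74.2 in ES-NMP cells. It also lies on chromosome 8, and with the median taken off its log2 ratio was -0.71 in Epi-CE over ES-NMP and 0.29 in Epi-CE-T over Epi-CE.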
